A study of Mus musculus with 10 samples.

Results

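The 9 genes described here make haem or move and store the iron that haem needs. Alas1, Alad, Cpox and Fech encode enzymes of haem synthesis, Tfrc and Slc11a2 iron importers, Slc25a37 the iron carrier of the mitochondrial membrane, Fth1 a ferritin chain and Slc40a1 the iron exporter. They were taken by symbol from the count table, where all 9 had a row and passed the filter on low counts, out of 21868 Ensembl genes. The study sequenced RNA of mouse cells sorted for Flk1, the VEGF receptor encoded by Kdr, which marks early progenitors of blood and endothelium. One genotype was Ldb1+/+ (WT) and the other Ldb1-/- (KO), which lacks the adaptor protein Ldb1 that joins LIM-domain and GATA factors into complexes on DNA. Both were grown from embryonic stem (ES) cells as embryoid bodies, in suspension and without LIF, in medium with 15% serum, 0.05 µg/ml added transferrin and ascorbic acid. The sources used here do not give the day at which cells for RNA were taken. No source names the ES cell clones, so an effect of Ldb1 loss and another difference between the WT and KO cells cannot be told apart.

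Haem is built from glycine and succinyl-CoA in a chain of enzymes that starts and ends in the mitochondrion. The first step, catalysed by ALA synthase, sets the pace: Alas1 encodes the form used by every cell and Alas2 the form that red cell precursors switch on to supply haemoglobin. Iron reaches the chain through transferrin, its receptor Tfrc, a reductase of the STEAP family in the endosome, the transporter Slc11a2 and the mitochondrial carrier Slc25a37. Surplus iron is kept in ferritin or leaves through ferroportin, the product of Slc40a1. Much of the control of Tfrc, Fth1 and Slc40a1 acts through iron regulatory proteins that bind their messenger RNAs.

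The labels give 4 libraries per genotype, with 11258493 to 13483294 reads each. Within each genotype, the counts of libraries 1 and 2 were about as alike as repeat draws of reads, as were those of libraries 3 and 4, so each pair was summed and counted as 1 sample. This left WT A, WT B, KO A and KO B (n = 2 per genotype), with 22674679 to 26775787 reads per sample. Whether A and B were grown separately is not in the labels, and every p-value below therefore reflects only the spread of A and B, which may be technical. Fits of 8 separate libraries, named as such where given, are the exception. The samples also differed within a genotype. A list of 10 pluripotency genes summed to 2175 CPM in WT A and 600 CPM in WT B, against 1039 and 1301 CPM in KO A and KO B. Here CPM is counts per 1000000 reads after TMM scaling. The 10 listed genes of primitive streak and early mesoderm summed to 41.7, 329, 79.4 and 32.5 CPM in WT A, WT B, KO A and KO B. A list of 12 genes of Flk1+ progenitors and endothelium summed to 1283, 1139, 753 and 310 CPM in the same order. Kdr itself, the basis of the sort, stood at 440, 605, 236 and 78.6 CPM and Pecam1 at 317, 131, 69.9 and 39.8 CPM. These were the largest parts of the WT sums. Of the 12 genes, 8 lay with both KO samples below WT, against 22.4% of all genes. Both KO samples lay above WT for 1, Emcn, at 6.7, 2.42, 15.5 and 7.69 CPM, against 23.2% of all genes. Cdh5 and Tek were highest in KO A, at 181 and 55.6 CPM. In such bulk samples, fewer cells of a type and less RNA per cell cannot be told apart. None of the 9 genes lies on chromosome 11 or 8, where the median gene stood at log2 differences of -0.46 and 0.22 in KO.

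Promoter sequences were available for part of the set and are shown for both ALA synthase genes, which are set against each other below, and for Cpox, which has the same GATAA letters as Alas2. RefSeq windows (build GRCm38.p6) were matched by symbol for 5 of the 9 genes (Alas1, Alad, Cpox, Tfrc and Fth1) and for Alas2. Each line gives the 250 bases before the most upstream start, read 5′ to 3′ on the gene's strand. Capitals mark GATAA, a form of the GATA letters bound by GATA factors, which here lies on the opposite strand and so reads TTATC. GATA followed by another letter is left unmarked, as directly before TTATC in Cpox, where the line reads CTATC.
Alas1 (chr9:106247955-106248204, minus strand): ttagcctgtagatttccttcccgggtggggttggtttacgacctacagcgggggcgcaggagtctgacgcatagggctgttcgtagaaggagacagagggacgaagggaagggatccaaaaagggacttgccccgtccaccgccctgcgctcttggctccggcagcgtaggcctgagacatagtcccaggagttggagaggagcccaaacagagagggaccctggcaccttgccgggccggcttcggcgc
Alas2 (chrX:150547167-150547416, plus strand): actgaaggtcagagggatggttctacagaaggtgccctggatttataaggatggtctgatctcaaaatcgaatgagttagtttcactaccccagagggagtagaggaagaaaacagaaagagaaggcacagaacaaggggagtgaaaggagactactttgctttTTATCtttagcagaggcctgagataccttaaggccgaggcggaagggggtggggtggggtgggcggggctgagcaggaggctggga
Cpox (chr16:58669958-58670207, plus strand): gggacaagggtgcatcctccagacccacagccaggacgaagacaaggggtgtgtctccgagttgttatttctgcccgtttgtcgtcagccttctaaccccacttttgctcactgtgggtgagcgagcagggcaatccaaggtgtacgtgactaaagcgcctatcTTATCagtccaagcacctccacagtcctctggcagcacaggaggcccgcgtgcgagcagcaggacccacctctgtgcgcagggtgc
GATAA was searched on both strands and was present in the 250-base windows of Cpox and Fth1 among the matched members, 2 of 9 windows since several genes have 2 starts. Of all 32851 windows, 22.6% held it. In Cpox and in Alas2 it begins 86 bases before the start, and in Fth1 175 bases before the more upstream of its starts. CANNTG, the E-box letters read by the Tal1 family, were in 66.2% of all windows. They were in every window of Alad and Fth1. Alas1 had them only at its more downstream start and Tfrc only at its more upstream one. Neither the Cpox nor the Alas2 window held them, nor did that of Alas1 shown here. The joint pattern of CANNTG, 6 to 10 bases of any kind and GATA, which overlaps the E-box search, was in 2.35% of all windows and in no window of these genes. Such matches describe letters only.

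Of the 9 genes, Slc40a1 stood apart, with about 3 times as many normalised reads in KO as in WT, while the other 8 lay within 0.5 of a log2 unit of equality. By edgeR's quasi-likelihood test with adjustment over all 16785 genes tested, 0 of the 9 passed an adjusted p of 0.05, where 0.185% of all genes did (0.125% lower and 0.0596% higher in KO). An unadjusted edgeR p under 0.05 was reached by Slc40a1, higher in KO, and by Fth1, lower in KO, against 15.5% of all genes (7.86% lower and 7.61% higher). DESeq2 called 1 of the 9, Slc40a1, against 6.9% of all genes, of which 3.37% were higher in KO. Slc40a1 was also the 1 member with a log2 fold change over 1 in size, against 8.29% of all genes. The median log2 fold change was -0.04 over the 9 and -0.01 over all genes, and its median size was 0.14 against 0.23. Samples of KO and WT did not overlap for 4 of the 9 genes, 3 lower and 1 higher, a share near the 45.6% of all genes for which that held (22.4% lower and 23.2% higher).

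**Figure D1:**
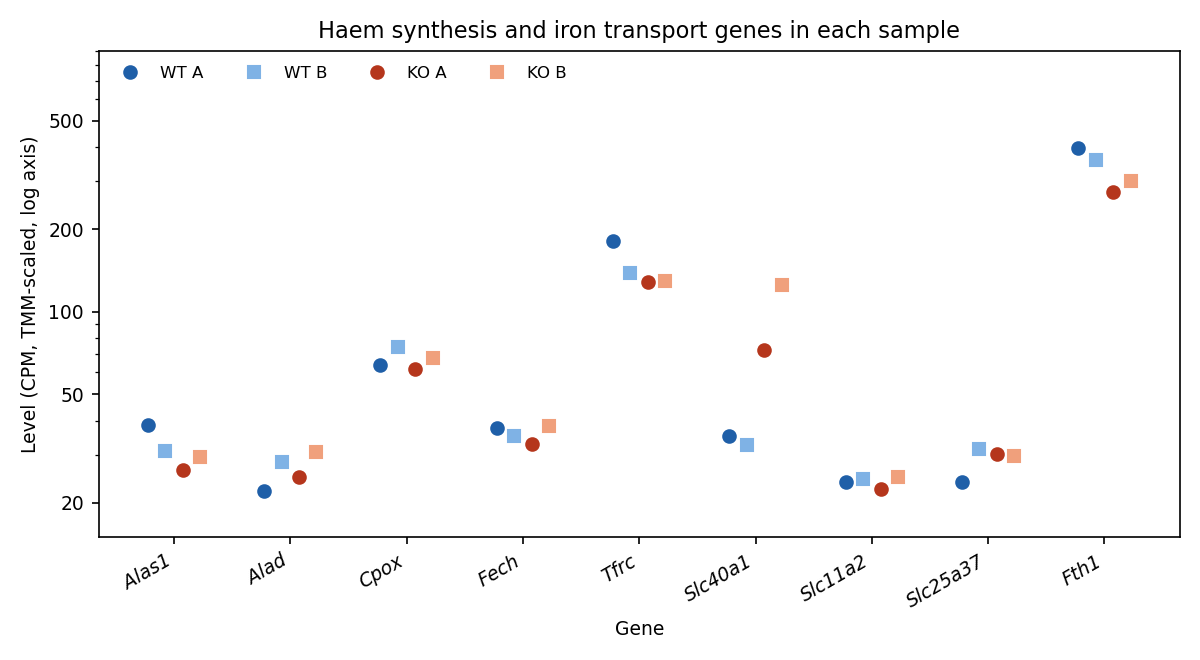
Level of each of the 9 genes (counts per 1000000 after TMM scaling, log axis) in WT A, WT B, KO A and KO B, 1 point per sample. Slc40a1 lies at 35.1 and 32.5 in WT and at 72.4 and 125 in KO, while the other genes show small or overlapping differences.

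Slc40a1 (ENSMUSG00000025993, chromosome 1) encodes ferroportin, the known exporter of iron from mammalian cells. It stood at 35.1 CPM in WT A and 32.5 CPM in WT B, and at 72.4 CPM in KO A and 125 CPM in KO B. Both KO samples lay above both WT samples, and KO B stood well above KO A. The means were 33.8 ± 1.86 CPM in WT and 98.7 ± 37.1 CPM in KO (SD, n = 2 each), a 2.92-fold difference. Its log2 fold change of 1.55 (SE 0.28, 95% interval 0.82 to 2.27) had an edgeR unadjusted p of 0.00278 and did not pass over all genes (adjusted p = 0.114), whereas DESeq2 gave an adjusted p of 1.83e-05. The KO samples differed from each other by 0.79 on the log2 scale, which enters the edgeR error. Without KO sample B the log2 fold change was 1.10 and without KO sample A it was 1.89.

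Ferroportin is abundant in visceral endoderm and in macrophages, so markers of both were read beside it. The 16 visceral endoderm genes summed to 404 and 362 CPM in WT A and B and to 646 and 515 CPM in KO A and B. Most of that came from the endocytic receptor gene Lrp2, at 226, 258, 528 and 423 CPM. The list was mixed in direction, with a median log2 fold change of -0.67. Of the 12 genes tested, 2 lay with both KO samples above WT and 4 with both below, against 23.2% and 22.4% of all genes. Beside Lrp2, the higher one was the endocytic adaptor gene Dab2, at 44.6, 30.6, 53.2 and 60.7 CPM, with KO B above KO A as for Slc40a1. For Lrp2 and for the sum of the list, KO A stood above KO B instead. Amn, Hnf4a, Rbp4 and Sox17 were the 4 lower ones, with Sox17 at 22.7, 20.9, 12.3 and 3.98 CPM. Cubn, an endocytic receptor gene, stood at 57.3 CPM in WT A and at most 5.79 CPM elsewhere. Among secreted products, Trf, the transferrin gene and also one of the pathway list below, stood at 31.4, 22.2, 23.5 and 13.9 CPM and Apob at 5.08, 2.91, 10.4 and 1.8 CPM, while Afp was at 3.5 CPM in WT A and at most 0.346 CPM elsewhere and Ttr at most 0.793 CPM. Of the 12, edgeR called 0, with 3 at an unadjusted p under 0.05, against 15.5% of all genes. DESeq2 called 1, which was Lrp2 (adjusted p = 4.56e-05), against 6.9% of all genes. The 10 macrophage genes in the table summed to 103, 102, 91.5 and 116 CPM in the same order of samples. Adgre1 and C1qb, which define macrophages, were at 0 in both WT samples and at most 0.0432 CPM in KO. Of the 6 macrophage genes tested, 2 lay with both KO samples above WT and 1 with both below, against 23.2% and 22.4% of all genes. The 1 below was Lyz2, at 0.555, 0.566, 0 and 0 CPM. The mannose receptor gene Mrc1 stood at 1.62 and 2.6 CPM in WT, against 13.5 and 4.14 in KO, with KO A the higher. DESeq2 called Mrc1 alone of the 6 (adjusted p = 0.0275), against 6.9% of all genes. Csf1r, the receptor gene of the macrophage growth factor, stood at 5.63, 4.3, 5.66 and 7.02 CPM, with KO B the higher. Cd68, at 49.2, 42.5, 28.6 and 48.9 CPM, and Itgam, at 45, 50.6, 41.8 and 54.2 CPM, gave nearly all of the sum, and both were higher in KO B than in KO A while their genotypes overlapped. Beyond these levels, the part of either cell type in the Slc40a1 difference was not tested.

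Haem synthesis enzymes did not pass in either direction. Alas1 (ENSMUSG00000032786, chromosome 9), the general ALA synthase, stood at 38.6 and 30.9 CPM in WT A and B and at 26.3 and 29.5 CPM in KO A and B. The KO samples lay just under WT B, and the gap between the WT samples was larger than the gap from WT B to KO B. Its log2 fold change was -0.32 (SE 0.18, 95% interval -0.76 to 0.12, edgeR adjusted p = 0.477). Alad (ENSMUSG00000028393, chromosome 4), which joins ALA molecules into the first ring, stood at 22.1, 28.2, 24.9 and 30.6 CPM in WT A, WT B, KO A and KO B. The genotypes overlapped, and sample B was the higher one in both. Its log2 fold change was 0.14 (SE 0.20, interval -0.36 to 0.64). Cpox (ENSMUSG00000022742, chromosome 16), the coproporphyrinogen oxidase of the mitochondrial intermembrane space, stood at 63.8, 74.6, 61.9 and 67.7 CPM in the same order. Here too the genotypes overlapped, at a log2 fold change of -0.09 (SE 0.14, interval -0.45 to 0.26). Fech (ENSMUSG00000024588, chromosome 18), ferrochelatase, which sets iron into the finished ring, stood at 37.7, 35.2, 32.7 and 38.2 CPM. With KO B highest and KO A lowest, its log2 fold change was -0.04 (SE 0.15, interval -0.42 to 0.34). For Alad, Cpox and Fech, the intervals leave room for changes in either direction, and the edgeR adjusted p values were 0.832, 0.845 and 0.944.

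Iron importers were likewise not past the test. Tfrc (ENSMUSG00000022797, chromosome 16), the receptor that takes up iron-loaded transferrin, stood at 181 CPM in WT A, 139 CPM in WT B, 128 CPM in KO A and 130 CPM in KO B. The KO samples were nearly alike and lay just below WT B, while WT A stood above the other 3. Its log2 fold change was -0.31 (SE 0.16, interval -0.72 to 0.10, edgeR adjusted p = 0.461), and it was -0.11 without WT sample A. WT A was also the sample with the highest summed pluripotency genes, as given above, and the part of that difference in the Tfrc value was not tested. Slc11a2 (ENSMUSG00000023030, chromosome 15), the divalent metal transporter DMT1 that moves iron out of the endosome, stood at 23.8, 24.5, 22.5 and 24.8 CPM. All 4 samples were close together, with a log2 fold change of -0.03 (SE 0.15, interval -0.41 to 0.36). Slc25a37 (ENSMUSG00000034248, chromosome 14), mitoferrin 1, which carries iron into mitochondria and is best known from red cell precursors, stood at 23.8, 31.5, 30.1 and 29.7 CPM. WT A was the low sample and the other 3 lay close together. Its log2 fold change was 0.11 (SE 0.19, interval -0.35 to 0.58, edgeR adjusted p = 0.857). One noncoding model in the GRCm38.p6 annotation overlaps Slc11a2 and 3 overlap Slc25a37, and as the use of strand in counting is not stated, reads of such overlaps cannot be separated.

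Fth1 (ENSMUSG00000024661, chromosome 19), the ferritin heavy chain that oxidises iron as it is stored, stood at 398 and 360 CPM in WT A and B and at 273 and 301 CPM in KO A and B. Each KO sample lay below each WT sample, and the samples of a genotype differed by 0.14 on the log2 scale. The means were 379 ± 26.7 CPM in WT and 287 ± 19.7 CPM in KO (SD, n = 2 each). Its log2 fold change of -0.40 (SE 0.13, interval -0.73 to -0.07) had an edgeR unadjusted p of 0.0249 and did not pass over all genes (adjusted p = 0.235), nor by DESeq2 (adjusted p = 0.0956). Processed copies of Fth1 exist in the mouse genome, so its reads may be shared with them. The light chain gene Ftl1 was at 1728 and 979 CPM in WT, against 1602 and 1836 in KO, with WT B alone low. Ftl1 had a log2 fold change of 0.34 (SE 0.29, edgeR adjusted p = 0.677), and of 0.80 without WT sample A and -0.00 without WT sample B. The Ftl1 value is uncertain. The table also lists its pseudogene Ftl1-ps1 at 2238, 1267, 2082 and 2370 CPM, which is 1.29 to 1.30 times Ftl1 in each sample, so reads of these near-identical sequences may have been split or counted for both.

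**Figure D2:**
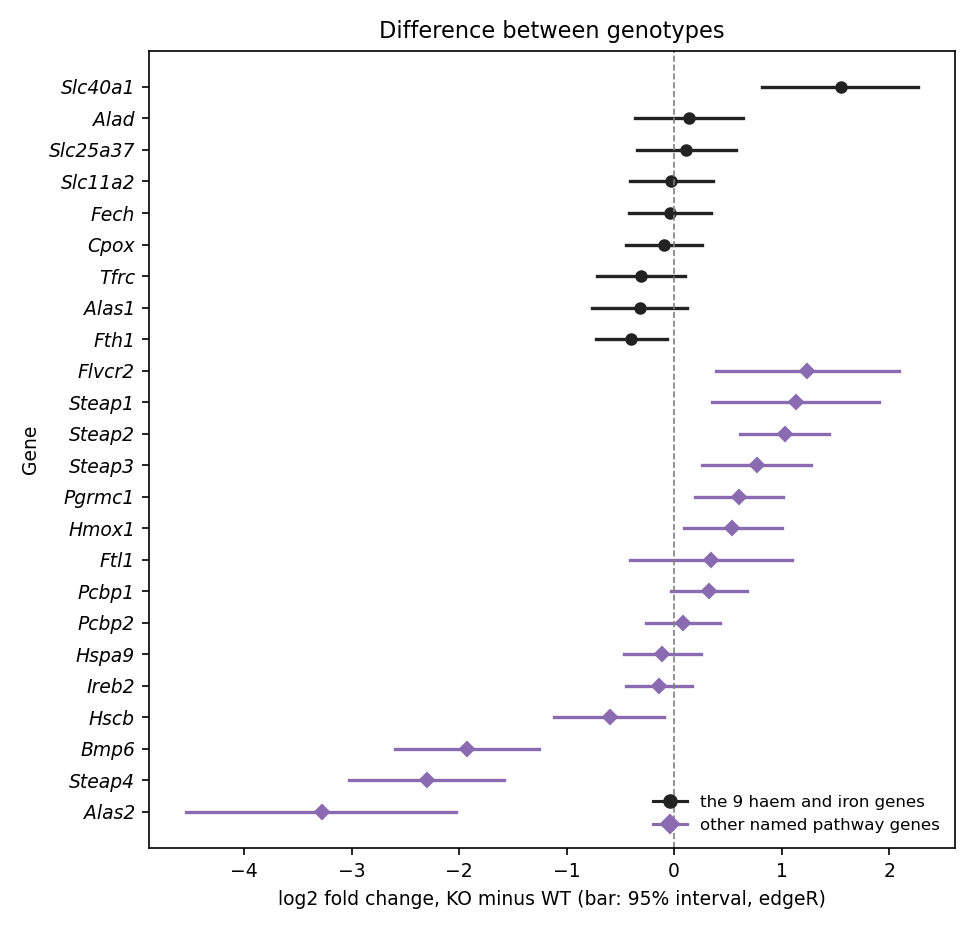
Log2 fold change of KO over WT (x axis) for the 9 genes (black circles) and for the other named pathway genes (purple diamonds), with bars for the 95% interval from edgeR. Slc40a1 at 1.55 and Fth1 at -0.40 are the members whose interval leaves out 0, and Alas2 at -3.28 is the lowest gene shown.

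Levels were compared between genes per kilobase of the transcript length in the authors' table. In WT, Fth1 was highest, at 438 ± 30.8 CPM per kb (SD, n = 2), and Tfrc next, at 66.5 ± 12.4. Cpox at 22.5 ± 2.48 and Alad at 20.2 ± 3.47 overlapped between samples, and Fech followed at 16.7 ± 0.788. Alas1 at 11.3 ± 1.76 overlapped with Slc40a1 at 9.99 ± 0.55, and Slc11a2 at 8.06 ± 0.161 and Slc25a37 at 6.64 ± 1.30 came last. In KO the order was the same at the top, with Fth1 at 332 ± 22.7 and Tfrc at 53.6 ± 0.438 CPM per kb, but Slc40a1 came next at 29.2 ± 11, where its samples overlapped with those of Alad. By mean level per kb, Slc40a1 ranked 7 of the 9 in WT and 3 in KO. Within a sample, the level per kb of Slc40a1 relative to that of Tfrc was 0.138 in WT A and 0.166 in WT B, and 0.402 in KO A and 0.685 in KO B.

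The erythroid ALA synthase gave a contrast to the general one. Alas2 (chromosome X), shown above for its promoter, had 59 and 137 reads in WT A and B and 10 and 9 in KO A and B, or 2.52, 5.17, 0.432 and 0.351 CPM. Its log2 fold change was -3.28 (SE 0.50, interval -4.54 to -2.03), 9.75-fold lower in KO, with an edgeR adjusted p of 0.100 and a DESeq2 adjusted p of 0.000269. Per kb of transcript, the level of Alas1 was 9.68 times that of Alas2 in WT A and 3.78 times in WT B, against 38.4 and 53 times in KO A and KO B. In all 4 samples the general form was thus the more abundant. A list of erythroid genes that includes Alas2 differed alongside it, and its 11 genes in the table summed to 65 and 85.1 CPM in WT, against 27.4 and 21.4 in KO. Most of the KO sum came from Epb42, at 25.9 and 27.2 CPM in WT, against 24.1 and 18.5 in KO. Epb42 had a log2 fold change of -0.32 (SE 0.19, edgeR adjusted p = 0.509). All 10 tested members of that list lay lower in KO, as did 8611 of all 16785 genes tested. By edgeR 3 passed, the alpha-like globin genes Hba-x, Hba-a1 and Hba-a2, against 0.125% of all genes. They lie on chromosome 11, where the median was -0.46, and their log2 fold changes were -6.69, -6.11 and -6.02. In WT A and B, Hba-a1 had 158 and 212 reads and Hba-a2 148 and 200, so these 2 genes may share reads. Of the defining globins, Hbb-bh1 was at 9.9 and 20.3 CPM in WT and at 0 in both KO samples. The part of erythroid cells in the Alas2 value was not tested.

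**Figure D3:**
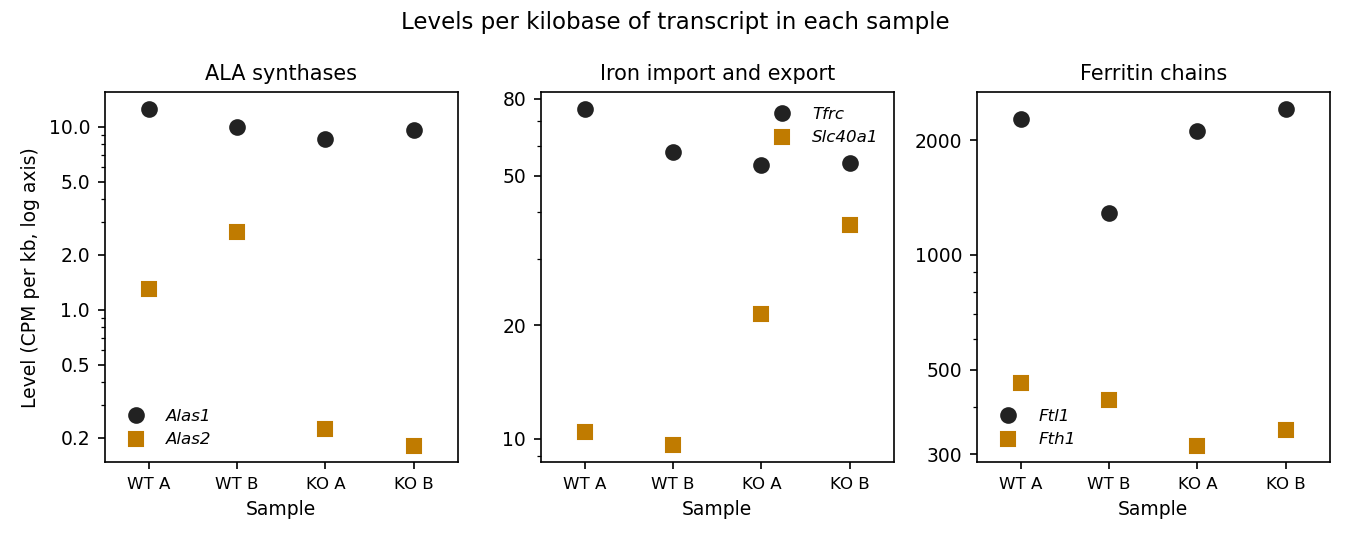
Level per kilobase of transcript (log axis) in each of the 4 samples, 1 point per sample, for Alas1 and Alas2, for Tfrc and Slc40a1, and for Ftl1 and Fth1. Alas2 lies at 1.29 and 2.66 in WT and at 0.222 and 0.181 in KO, while Alas1 lies between 8.52 and 12.5.

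The wider pathway was read from a list of 59 further genes of haem and iron handling, of which 56 passed the filter on low counts. By edgeR 0 of the 56 passed over all genes, while an unadjusted p under 0.05 was reached by 6 genes lower and 6 higher in KO, which is 21.4% of the list against 15.5% of all genes. DESeq2 called 3 lower, Steap4, Bmp6 and Alas2, and 3 higher, Steap2, Steap1 and Pgrmc1, against 3.53% and 3.37% of all genes. The median log2 fold change of the list was -0.09.

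The pathway genes were divided into roles after their values were seen, so counts by role are descriptions, to be read against the 15.5% of all genes (7.86% lower and 7.61% higher) with an unadjusted edgeR p under 0.05. Among uptake genes, members of the STEAP family stood in opposite directions. Steap2, Steap3 and Steap4 encode metalloreductases, which reduce iron before transport, whereas Steap1 lacks the reductase domain of the other 3. Steap4 was at 20.4 and 19 CPM in WT A and B and at 4.97 and 3.04 CPM in KO A and B (log2 fold change -2.30, SE 0.29, edgeR adjusted p = 0.0749). Steap2 was at 29 and 25.9 CPM in WT, against 50.3 and 61.5 in KO (1.03, SE 0.17, adjusted p = 0.105). Steap3, the reductase of the transferrin cycle in mouse red cell precursors, was at 8.58 and 7.55 CPM in WT, against 13.4 and 14 in KO (0.77, SE 0.20, adjusted p = 0.169). Steap1 stood at 8.15, 6.15, 11.9 and 19.5 CPM (1.13, SE 0.31, adjusted p = 0.179). For each of the 4 the WT and KO samples did not overlap, with Steap4 lower and the other 3 higher in KO. Such separation held for 6 of the 11 uptake genes beside Tfrc and Slc11a2, and for 45.6% of all genes. The 4 were those of the 11 with an unadjusted edgeR p under 0.05, or 36.4% against 15.5% of all genes.

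Bmp6, a ligand that induces hepcidin in the liver, was at 10.3 and 12.8 CPM in WT, against 3.37 and 2.69 in KO (log2 fold change -1.93, SE 0.27, edgeR adjusted p = 0.0867). Hamp, which encodes hepcidin, the hormone that removes ferroportin from the cell surface, did not reach the filter and had at most 0.117 CPM in any sample. Among haem synthesis genes other than the 4 members, 2 lower and 1 higher of 11 had an unadjusted edgeR p under 0.05, or 27.3% against 15.5% of all genes. The higher one, Pgrmc1, a haem-binding partner of ferrochelatase, stood at 86.4 and 97.7 CPM in WT, against 124 and 156 in KO (0.60, SE 0.16, adjusted p = 0.177).

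Genes of haem transport and breakdown had 0 lower and 2 higher of 10 at an unadjusted edgeR p under 0.05, or 20% against 15.5% of all genes. Flvcr2, a membrane transporter of the FLVCR family, was at 2.77 and 2.08 CPM in WT, against 4.62 and 6.79 in KO (1.24, SE 0.34, adjusted p = 0.179). Hmox1, which opens the haem ring and frees its iron, was at 57.3 and 42 CPM in WT, against 71.3 and 73.2 in KO (0.54, SE 0.18, adjusted p = 0.243). Hmox1 lies on chromosome 8, and with each chromosome's median removed its log2 fold change was 0.32 and its unadjusted edgeR p was 0.13, no longer under 0.05.

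**Figure D4:**
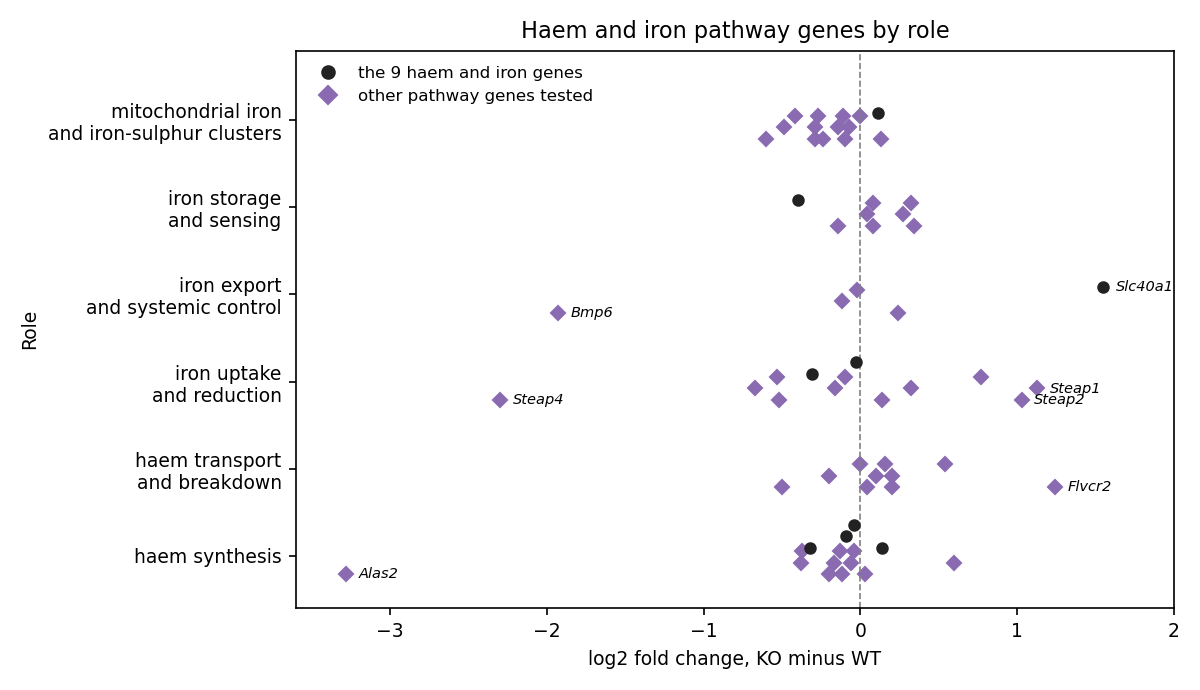
Log2 fold change of KO over WT for each tested pathway gene, set out by role, with the 9 genes as black circles and the other pathway genes as purple diamonds. Most points lie near 0, while Alas2, Steap4 and Bmp6 lie far to the left and Slc40a1, Flvcr2, Steap1 and Steap2 to the right.

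Genes of mitochondrial iron and iron-sulphur clusters had 2 lower and 0 higher of 13 at an unadjusted edgeR p under 0.05, a share of 15.4% that is that of all genes (15.5%). Their median log2 fold change was -0.24, against -0.01 over all genes. The co-chaperone gene Hscb was at 18.7 and 17.4 CPM in WT, against 10.3 and 13.4 in KO (-0.60, SE 0.21, adjusted p = 0.248), whereas its partner Hspa9, an abundant mitochondrial chaperone gene, stood at -0.11 (SE 0.14). None of the 7 tested genes of iron storage and sensing reached that p by edgeR, and 0 were called by DESeq2. The iron chaperone genes Pcbp1 and Pcbp2 had log2 fold changes of 0.32 (SE 0.14) and 0.08 (SE 0.14), and Ireb2, which encodes iron regulatory protein 2, of -0.14 (SE 0.13, interval -0.45 to 0.17).

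Patterns over the 4 samples were compared among 115 genes of these lists and the marker lists, as the root mean square difference of log2(CPM + 1) after centring each gene. The genes nearest to Slc40a1 were Steap1 at 0.251 and Flvcr2 at 0.285. Tfrc lay nearest to Tfr2 at 0.0301 and Alas1 at 0.0569, and Fth1 nearest to Lyrm4 at 0.0264 and Abcb6 at 0.0564. Tfr2 has about 1 CPM, so the added 1 flattens its profile. Over 4 samples the measure is a description only.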

How the data were processed

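RNA of Flk1-sorted Ldb1+/+ and Ldb1-/- cells was sequenced on an Illumina instrument, per the labels. The authors deposited raw read counts per Ensembl gene and a transcript length for each gene, per the file headers. The submitters' processing notes name mm9 and DESeq. For the aligner, counter, strand setting and annotation release, nothing is given in the sources used. The deposited Ldb1 ChIP-seq peak list was not used here, as no annotation of its build was at hand to place these genes.

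Of 21868 genes, 20362 were paired with a symbol. To find repeat libraries, each pair was compared with a chi-square statistic for every gene that had 20 reads or more. Its mean was 1.065 to 1.101 for the 4 pairs that were summed. For the other 8 pairs within a genotype it was 28.038 to 28.465 in WT and 12.764 to 13.28 in KO. Counts of the 4 summed samples passed through filterByExpr, were TMM-scaled and were tested across all genes with the quasi-likelihood test of edgeR 4.0.16 (robust) in R 4.3.3. P-values were adjusted by Benjamini-Hochberg over all genes tested, with a threshold of 0.05. SE is the log2 fold change divided by the root of the F statistic, and intervals are 95%. An exact permutation test of 2 against 2 samples cannot give a p below 0.333. The script was tested on simulated data. Alternatives used DESeq2 1.42.0, limma 3.58.1 voom, other scalings and filters, a replicate block, separate libraries, removal of chromosome medians, and fits without each library or sample. Figures used matplotlib 3.10.9.

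The 9 genes, the pathway list and the marker lists were chosen with earlier results of these data known, and the division of the pathway list into roles was made after its values were seen. Named pathway genes were the 10 with the lowest unadjusted p, as none passed, and the 6 most abundant. Pattern likeness took the 2 nearest genes per member among those with a mean of at least 1 CPM. Hamp, Lyrm4, Abcb6 and Tfr2 were named for other reasons given in the text, and Hamp after its value was seen.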

Additional observations from a re-analysis of the deposited data

How the results depend on the processing

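Of the 9 genes, 0 passed under each alternative run with 3 exceptions, which were DESeq2 with 1 (Slc40a1), 8 libraries fitted separately with 4 (Slc40a1 higher; Fth1, Alas1 and Tfrc lower) and the same with the replicate block with 2 (Slc40a1 and Fth1). The last 2 treat summed pairs as replicates. Of the other pathway genes, 0 passed in the main test, 6 by DESeq2, 3 with no filter on low counts (Steap4, Bmp6 and Alas2), 20 with 8 libraries fitted separately, 18 with these and the replicate block, and 0 to 7 on leaving out a library or sample, where the 7 came without WT sample A, and leaving out WT sample B gave 6 and KO library 1 gave 1. Over all genes the count of 31 became 1159 by DESeq2, 3 by limma-voom, 151 with no filter, 5 when 1 CPM was required in 2 samples or more, 3860 with 8 libraries fitted separately, 3410 with these and the replicate block, 2 at an adjusted p of 0.01, and 0 to 1674 on leaving out a library or sample, where dropping either KO sample gave 0 (1704 and 1106 at an unadjusted edgeR p under 0.05), WT sample A 1537 and WT sample B 1674. In a fit without 1 sample, the lone sample left is assumed to vary like the other genotype. The cause was not tested.

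On leaving out a library or sample, the log2 fold change crossed 0 for Alad (-0.03 to 0.33), Cpox (-0.21 to 0.03), Fech (-0.16 to 0.07), Slc11a2 (-0.10 to 0.05), Slc25a37 (-0.08 to 0.33), Ftl1 (-0.00 to 0.80), Pcbp2 (-0.04 to 0.21) and Hspa9 (-0.23 to 0.02). Over all 23 alternatives Slc40a1 stayed between 1.10 and 1.89, Fth1 between -0.47 and -0.33 and Tfrc between -0.48 and -0.11. Alas1 stayed between -0.46 and -0.16, and Alas2 between -3.90 and -2.67. By DESeq2 on the 4 samples, the adjusted p was 1.83e-05 for Slc40a1 and 0.0956 for Fth1. The edgeR fit of 8 separate libraries, which treats summed pairs as replicates, gave adjusted p of 0.000883 and 0.00183.

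Replicate numbers are shared by the genotypes. Deviations of same-lettered samples from their genotype means were nearly uncorrelated (r = -0.0846 across 16785 genes). With 2 samples per genotype, this correlation cannot show whether same-lettered samples shared a batch. Over both genotypes, libraries 1 and 2 had 11258493 to 11687613 reads, and libraries 3 and 4 had 13006763 to 13483294. With samples A and B as a replicate block, 5 genes passed in place of 31, and 0 of the 9.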

Other observations

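Of 6 X-linked relatives of the ferritin heavy chain gene, 5 were highest in WT A. The other, Fthl17a, stood at 0.854, 0.491, 0.907 and 1.52 CPM in WT A, WT B, KO A and KO B, highest in KO B (log2 fold change 0.86, SE 0.48, edgeR adjusted p = 0.487). These values were picked after they were seen. Fthl17e stood at 17.8 CPM in WT A and at 1.25, 1.25 and 0.429 CPM in WT B, KO A and KO B, and Fthl17b at 16.8, 1.21, 1.17 and 0.429 CPM. Fthl17c, Fthl17d and Fthl17f were likewise highest in WT A, at 12.8, 14.6 and 11 CPM, and these near-identical copies may share reads. By edgeR none of the 5 highest in WT A passed, with adjusted p of 0.362 to 0.446, while DESeq2 gave adjusted p of 0.0164 to 0.23. WT A was also the sample with the highest summed pluripotency genes, and no test of a link was made.

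The zinc and iron importer genes Slc39a8 and Slc39a14, also picked after their values were seen, differed more between the WT samples than between genotypes. Slc39a8 stood at 31.8 CPM in WT A, 67.7 in WT B, 63.4 in KO A and 46.2 in KO B (log2 fold change 0.14, SE 0.41). Slc39a14 stood at 50.1, 30.5, 40 and 35.3 CPM (log2 fold change -0.10, SE 0.26).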
